A study of Drosophila melanogaster with 8 samples.

Results

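Gene expression in heads of Obp56h-/- females was compared with that in heads of CSB females. The libraries were chosen by their labeled genotype and sex, 2 for each genotype, and make up 4 of the 8 libraries of the series, the others being of males. CSB (Canton S-B) is the control strain, and Obp56h-/- flies carry in this background a CRISPR/Cas9 deletion of Obp56h, in whose place stands the DsRed marker gene under an eye-specific promoter. Each library was made from the heads of a pool of 50 adult flies, 3 to 5 days old and reared at 25°C. A single deletion line is described, so effects of the allele, of the cassette and of other differences between this line and CSB cannot be told apart. Read counts were deposited for 17490 genes, and 13536 of these had enough reads to be tested.

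Odorant-binding proteins are small secreted proteins that carry hydrophobic molecules, best known from the fluid of the chemosensory hairs, and several of them are also made in tissues that do not smell or taste. Many of the changes described here lie in innate immunity. In flies, peptidoglycan of Gram-negative bacteria activates the Imd pathway, whose transcription factor Relish switches on genes for secreted antimicrobial peptides, mostly in the fat body, a tissue that also lies inside the head around the brain. The Toll pathway, activated by Gram-positive bacteria and fungi, drives another set of peptides, among them the Bomanins and drosomycin.

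The 4 libraries held between 10127941 and 25918919 counted reads, and the smallest level each could show, taken as 3 reads, was between 0.122 and 0.276 CPM (read counts scaled by TMM to a common library size). CSB replicate 1 was the shallowest and stood apart. It had reads on 66.5% of the 3954 genes that were too low to be tested, whereas the other female libraries had reads on 35.1% to 49.5% of them, and the first principal component of the 4 libraries, with 75% of the variance, set it at -95.6 against 16.8 to 45.7. Across genes, log2 CPM of the replicates correlated at 0.9653 in CSB and 0.9883 in Obp56h-/- (Pearson's r, across genes), and within each genotype the counts differed by more than counting noise allows (chi-square over its degrees of freedom 15.84 and 20.72). Calls were therefore also made against each CSB library on its own, in fits that left out the other CSB library. Head tissue was well represented, with summed levels of photoreceptor markers between 29600 and 31500 CPM, of neuronal markers between 8320 and 11700 CPM and of fat body markers between 61300 and 70900 CPM. In bulk samples, fewer cells of a type and less RNA per cell cannot be told apart.

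Of the genes tested, 140 (1.03%) differed between the genotypes at an adjusted p under 0.05 in the quasi-likelihood test of edgeR (Benjamini-Hochberg adjustment over all genes tested). Levels were higher in Obp56h-/- females for 81 genes (0.598%) and lower for 59 genes (0.436%). An unadjusted p under 0.05 was found for 1455 of the 13536 genes tested. Counts at that level in the gene lists below are to be read beside this share. Calls in those lists are to be read beside the 0.598% of all genes that rose and the 0.436% that fell. The 140 genes include 119 that code for proteins, and 49 have only a systematic CG or CR symbol. Exons of 24 called genes overlap a gene on the opposite strand and those of 2 a gene on the same strand, and the counts of such genes are less certain. CG9926, DptB, AttC, DnaJ-H, CG17264 and hpRNA:CR32207, described below, are among the 24. Changes under 2-fold were frequent among the rises, with 35 of 81 below 1 on the log2 scale, and infrequent among the falls, with 9 of 59. For comparison, both Obp56h-/- libraries lay above both CSB libraries for 2625 genes (19.4%) and below them for 2971 genes (21.9%), so that a lack of overlap alone says little with 2 libraries a side.

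Against each CSB library separately, 21 of the rises (0.155% of the genes tested) and 16 of the falls (0.118%) were called in both fits. The rises called in both fits had a median log2 difference of 2.25 from CSB replicate 1 and of 2.16 from replicate 2. A further 9 rises and 24 falls were called only against CSB replicate 1, another 12 rises and 8 falls only against replicate 2, and 39 rises and 11 falls in neither fit. The 24 falls seen only against replicate 1 are the group that depends most on the choice of control, since their median log2 difference was -2.80 from CSB replicate 1 and -1.04 from replicate 2. Leaving out a library also leaves fewer samples for the test. Without CSB replicate 1, CSB replicate 2, Obp56h-/- replicate 1 or Obp56h-/- replicate 2, respectively, 57, 70, 67 and 63 of the 140 genes kept their call, and 19 rises and 16 falls kept it whichever library was left out.

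**Figure D1:**
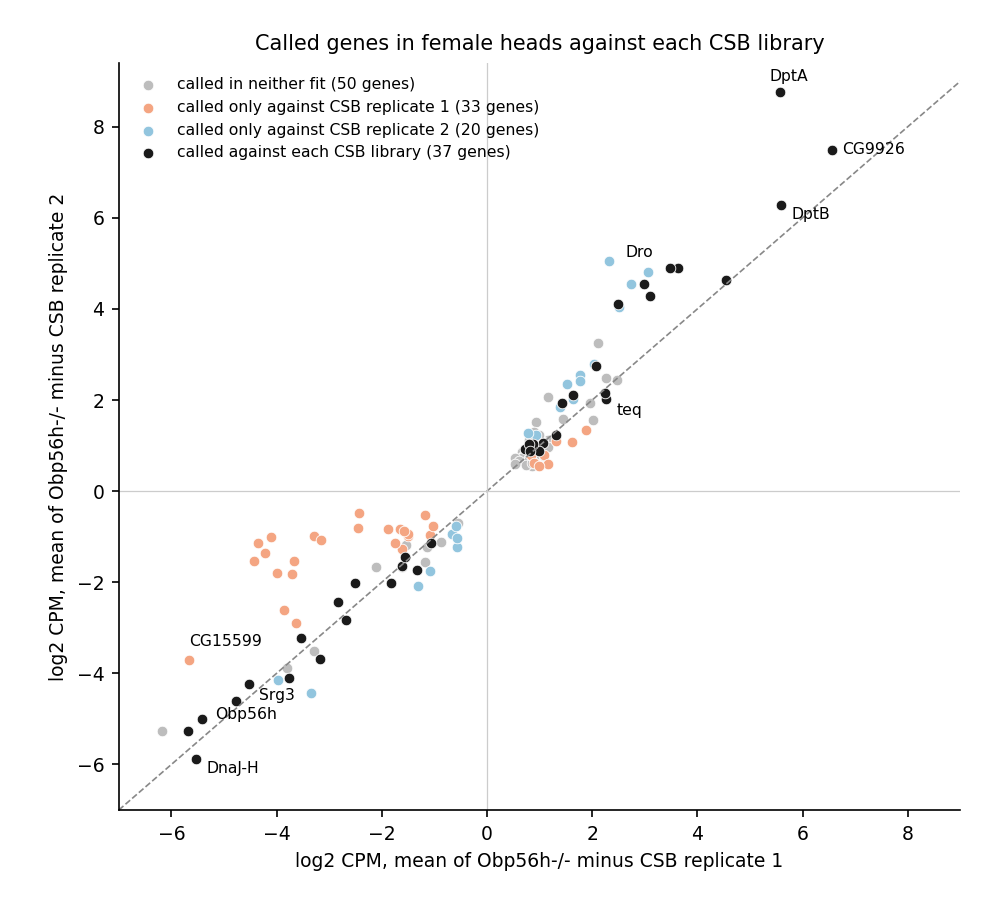
Each point is 1 of the 140 called genes. The x axis gives the mean log2 CPM of the Obp56h-/- libraries minus the log2 CPM of CSB replicate 1, the y axis the same against CSB replicate 2, and the dashed line marks equal differences. The 37 genes called against each CSB library (black) lie along the line, whereas many of the 33 genes called only against replicate 1 (orange) have a far smaller difference from replicate 2.

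Obp56h itself (FBgn0034475) was counted 54 and 90 times in CSB replicates 1 and 2 and 1 and 0 times in Obp56h-/- replicates 1 and 2. In CPM, these were 4.97, 3.72, 0.0408 and 0, and the genotypes did not overlap. From the pooled counts the level was 175-fold higher in CSB (95% interval of the ratio 30.9 to 6950, which covers counting error only), and the difference was called with every library left out in turn (adjusted p = 1.36e-05 with all of them). In the same gene cluster, Obp56a was called in the other direction, and the level of the neighboring members Obp56d, Obp56e and Obp56g differed by at most 0.10 on the log2 scale, with none called.

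The antimicrobial peptide genes were the group with the largest share of calls. Of 17 tested, 11 were higher in Obp56h-/- females and 0 lower, and the median log2 difference over the 17 was 2.41, compared with -0.03 over all genes tested. The summed level of the 17 genes was 429 and 242 CPM in CSB replicates 1 and 2 and 1052 and 1344 CPM in Obp56h-/- replicates 1 and 2. Of the 11, DptA, DptB, Dro, AttB and CecA2 were called against each CSB library, and 16 of the 17 had a log2 difference above 0.

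The diptericin genes DptA and DptB, whose peptides act against Gram-negative bacteria, lie next to each other on 2R, from 18865765 to 18867895. DptA was at 1.56 and 0.0827 CPM in CSB replicates 1 and 2 and at 58.7 and 105 CPM in Obp56h-/- replicates 1 and 2, a log2 difference of 7.14 ± 0.69 (SE, n = 2 a side, adjusted p = 8.38e-06). DptB was at 2.12 and 1.28 CPM in CSB and at 90.6 and 127 CPM in Obp56h-/-, a log2 difference of 6.10 ± 0.70 (SE, adjusted p = 6.39e-05). In both genes the lowest Obp56h-/- library was far above the highest CSB library.

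Drosocin (Dro) and attacin B (AttB) are encoded by genes that lie close together on 2R, with AttA between them. Dro was at 22.9 and 9.46 CPM in CSB replicates 1 and 2 and at 246 and 329 CPM in Obp56h-/-, a log2 difference of 4.21 ± 0.44 (SE, adjusted p = 1.94e-05). AttB rose from 2.49 and 1.03 CPM to 24.6 and 19.9 CPM, a log2 difference of 3.82 ± 0.41 (SE, adjusted p = 2.75e-05). For both, the control level itself was higher in CSB replicate 1 than in replicate 2, but below either Obp56h-/- library. Attacin genes are near copies of each other, so reads that align uniquely may be divided unevenly between AttB and AttA. AttA was at 2.85 and 0.248 CPM in CSB and at 6.53 and 6.87 CPM in Obp56h-/- and was not called (adjusted p = 0.0733), whereas AttC, at 30.4 and 26 CPM in CSB and at 121 and 179 CPM in Obp56h-/-, was called with all libraries (log2 difference 2.41 ± 0.37, SE, adjusted p = 0.00136) but not without CSB replicate 1 or CSB replicate 2 (adjusted p = 0.098 and 0.087).

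Cecropins, which open bacterial membranes, come from a cluster on 3R. CecA2 had 3 counts in all in CSB and 190 in Obp56h-/-, a ratio of 52.2 (95% interval 17.6 to 255, counting error only), and its CPM was 0.0921 and 0.0827 against 4.73 and 4.10. CecA1 was at 0.829 and 0.165 CPM in CSB and at 6.45 and 5.76 CPM in Obp56h-/- (log2 difference 3.86 ± 0.61, SE, adjusted p = 0.00205), and its call was lost without CSB replicate 2 (adjusted p = 0.069). CecB and CecC were also higher in both Obp56h-/- libraries than in both CSB libraries, but were not called (adjusted p = 0.207 and 0.253) at levels of at most 1.96 CPM.

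Among the remaining peptides, defensin (Def) rose by 2.22 ± 0.34 and the metchnikowin-like gene Mtkl by 2.18 ± 0.31 on the log2 scale (SE, adjusted p = 0.00139 and 0.000594), both calls being lost only without CSB replicate 2 (adjusted p = 0.069 and 0.068). The drosomycin-like genes Drsl4 and Drsl5, which are neighbors on 3L, rose by 1.16 ± 0.22 and 0.87 ± 0.17 (SE, adjusted p = 0.0105 and 0.0135), and each kept its call only when Obp56h-/- replicate 2 was left out (adjusted p between 0.095 and 0.20 without any other library). Drosomycin (Drs), a main target of the Toll pathway, was not called. It was at 22.0 and 9.42 CPM in CSB and at 7.75 and 7.64 CPM in Obp56h-/- (log2 difference -0.99 ± 0.48, SE, adjusted p = 0.47). Metchnikowin (Mtk), at 281 and 136 CPM in CSB and 340 and 417 CPM in Obp56h-/-, was not called either (adjusted p = 0.519).

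**Figure D2:**
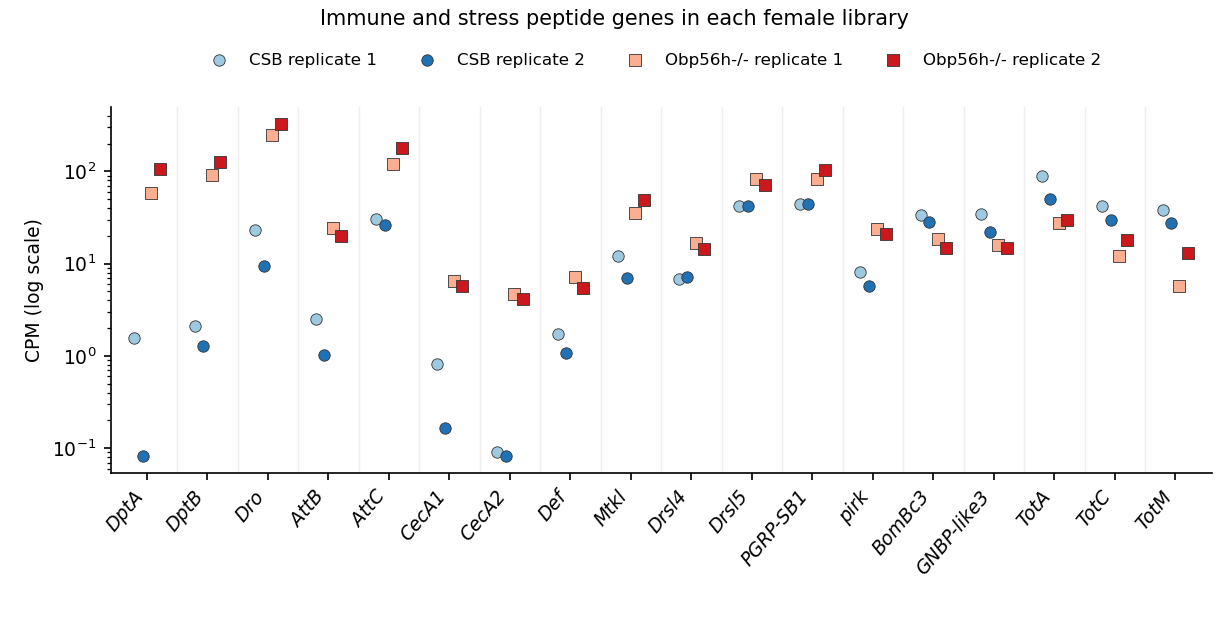
Levels of the called immune and stress peptide genes in each female library, in CPM on a log axis, with circles for the CSB libraries and squares for the Obp56h-/- libraries. Levels can be compared within a gene, not between genes. From DptA to pirk both squares lie above both circles, and from BomBc3 to TotM both squares lie below them.

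Of the 18 tested genes of the Imd pathway, only pirk was called. The pirk protein restrains the pathway by binding its receptors. Its level was 8.2 and 5.75 CPM in CSB replicates 1 and 2 and 23.7 and 20.9 CPM in Obp56h-/-, a log2 difference of 1.71 ± 0.21 (SE, adjusted p = 0.000117), and the call was kept whichever library was left out. Relish (Rel) was at 69.6 and 85.1 CPM in CSB and at 108 and 106 CPM in Obp56h-/- and was not called (log2 difference 0.46 ± 0.14, SE, adjusted p = 0.198). The receptors PGRP-LC and PGRP-LE, the adaptor imd and the kinase Tak1 had log2 differences between -0.03 and 0.17. Of 13 peptidoglycan recognition and GNBP genes, PGRP-SB1, which codes for a secreted amidase, rose from 44.7 and 44.5 CPM to 83.4 and 105 CPM (log2 difference 1.08 ± 0.21, SE, adjusted p = 0.0124), a call lost without CSB replicate 1, CSB replicate 2 or Obp56h-/- replicate 2 (adjusted p between 0.12 and 0.23). GNBP-like3 fell by 0.88 ± 0.20 (SE, adjusted p = 0.0425) and kept its call only against CSB replicate 1 (adjusted p between 0.21 and 0.78 in the other fits).

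Calls in the Toll branch are read against the 1.03% called over all genes, so 0 or 1 call in lists this short says little. None of the 15 tested genes of the Toll pathway was called by edgeR, none had an unadjusted p under 0.05, and DESeq2 called 0 of them, while in the Bomanin and Daisho list, whose short peptides are made after Toll activation, 0 of 16 rose and BomBc3 fell. BomBc3 was at 33.9 and 28.3 CPM in CSB and at 18.7 and 14.8 CPM in Obp56h-/- (log2 difference -0.88 ± 0.18, SE, adjusted p = 0.0147), without overlap, and its call was lost without CSB replicate 1 or Obp56h-/- replicate 2 (adjusted p = 0.28 and 0.33). The 12 genes of the JAK-STAT pathway, the 5 thioester proteins and the 4 tested lysozymes gave 0 calls with edgeR and with DESeq2, and 1, 0 and 0 of them had an unadjusted p under 0.05. In the melanization list of 21 genes, the call was ple, the tyrosine hydroxylase that also makes dopamine, with a rise of 0.63 ± 0.15 on the log2 scale (SE, adjusted p = 0.0425) that was lost with any library left out (adjusted p between 0.11 and 0.59).

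The Turandot peptides, which are secreted after heat, infection and other stresses, went the other way from the antimicrobial peptides. Of 7 tested, TotA, TotC and TotM were lower in Obp56h-/- females and 0 were higher, whereas DESeq2 called TotA alone (adjusted p = 0.033, against 0.058 for TotC and 0.22 for TotM). TotA was at 90.1 and 50.5 CPM in CSB replicates 1 and 2 and at 27.3 and 29.8 CPM in Obp56h-/- (log2 difference -1.29 ± 0.23, SE, adjusted p = 0.00678), and its neighbor TotC at 42.1 and 29.6 CPM against 12.2 and 18.1 CPM (log2 difference -1.24 ± 0.24, SE, adjusted p = 0.0108). All of these levels were highest in CSB replicate 1. The calls of TotA, TotC and TotM were lost without that library (adjusted p = 0.21, 0.30 and 0.55), and of the 3 only TotA and TotC were called without CSB replicate 2, TotM having an adjusted p of 0.11. Without Obp56h-/- replicate 1 none of them was called (adjusted p between 0.098 and 0.37), and without Obp56h-/- replicate 2 TotA was not (adjusted p = 0.055). The median over the 7 genes was -1.50 against CSB replicate 1 and -0.82 against replicate 2. TotX, at 8.93 and 6.41 CPM in CSB and 5.26 and 9.19 CPM in Obp56h-/-, overlapped between the genotypes.

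Listericin and Tequila were called against each CSB library. Listericin, which codes for an antibacterial protein, rose from 163 and 156 CPM to 317 and 259 CPM (log2 difference 0.85 ± 0.15, SE, adjusted p = 0.00487), and its call was lost without Obp56h-/- replicate 1 (adjusted p = 0.13). Tequila (teq), a multidomain serine protease known from long-term memory, rose from 71.3 and 84.8 CPM to 338 and 350 CPM (log2 difference 2.14 ± 0.14, SE, adjusted p = 3.87e-08). The means of teq were 78.0 ± 9.54 CPM in CSB and 344 ± 8.82 CPM in Obp56h-/- (SD, n = 2), so that the difference was many times the spread between replicates. Achilles (Achl), a clock-controlled gene of the brain, was at 23.0 and 28.4 CPM in CSB and at 50.1 and 47.9 CPM in Obp56h-/- (log2 difference 0.92 ± 0.15, SE, adjusted p = 0.00309), and its call was lost without CSB replicate 1 (adjusted p = 0.088). Srg3, named as a gene regulated by the antiviral protein STING, went the other way. It was at 94.2 and 76.9 CPM in CSB and at 4.29 and 3.71 CPM in Obp56h-/-, a log2 difference of -4.41 ± 0.19 (SE, adjusted p = 5.04e-11).

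The largest rise was that of CG9926 on 3R, a protein-coding gene known only by its systematic symbol. Its exons overlap CG31517 on the opposite strand. CG9926 had 1 count in all in CSB and 758 in Obp56h-/-, a ratio of 625 (95% interval 112 to 24700, counting error only). The CPM of CG9926 was 0.0921 and 0 against 14.3 and 22.5 (adjusted p = 7.26e-09). CG17237 was at 0.552 and 0.124 CPM in CSB and at 5.79 and 4.49 CPM in Obp56h-/- (log2 difference 4.18 ± 0.56, SE, adjusted p = 0.000371), and the pseudogene CR45458 had 4 counts in CSB and 172 in Obp56h-/-, a ratio of 35.4 (95% interval 13.6 to 132). For each of these genes both Obp56h-/- libraries lay above both CSB libraries. CG15282, CG9759, CG34165, CG42821, CG7203 and CG14419 were also called against each CSB library, with log2 rises from 1.07 to 3.35. Of the other large rises, CG12826 (0.921 and 0.207 CPM in CSB, 8.2 and 8.69 CPM in Obp56h-/-) and CG7213 (0.829 and 0.0413 CPM in CSB, 4.82 and 4.32 CPM in Obp56h-/-) lost their calls without CSB replicate 2 (adjusted p = 0.11 and 0.096), and CG7213 also without Obp56h-/- replicate 1 or replicate 2 (adjusted p = 0.11 and 0.085). The gene flower (fwe), which codes for a membrane protein of synaptic vesicles and of cell competition, rose from 188 and 201 CPM to 365 and 378 CPM (log2 difference 0.93 ± 0.14, SE, adjusted p = 0.000827), with its call kept in every fit.

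The falls that held against each CSB library included several near-complete losses of a transcript. DnaJ-H, on 2L from 13163209 to 13166072, codes for a co-chaperone of the DnaJ family. It was at 44.6 and 57.5 CPM in CSB and at 0.857 and 0.886 CPM in Obp56h-/- (log2 difference -5.87 ± 0.22, SE, adjusted p = 1.71e-11). Exons of DnaJ-H overlap Sirt1, which is read from the other strand, and whether reads were counted by strand is not given in the sources used here. The level of Sirt1 was between 93.6 and 117 CPM in the 4 libraries. The other 7 tested members of the DnaJ list were not called.

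Non-coding RNAs were among the losses as well. The hairpin RNA hpRNA:CR32207, one of the long hairpins from which the fly cuts small interfering RNAs, had 146 counts in CSB and 0 in Obp56h-/-, at least 30.6-fold lower against a floor of 3 counts a library (adjusted p = 0.000319). Its neighbor hpRNA:CR33940 was at 3.13 and 3.68 CPM in CSB and at 0.612 and 0.0554 CPM in Obp56h-/- (log2 difference -3.25 ± 0.71, SE, adjusted p = 0.0305), but this call was lost without CSB replicate 1, CSB replicate 2 or Obp56h-/- replicate 2 (adjusted p between 0.13 and 0.33). The long non-coding RNA lncRNA:CR43625 had 107 counts in CSB and 1 in Obp56h-/-, a ratio of 130 (95% interval 22.8 to 5180), and lncRNA:CR32368 was at 69.4 and 55.9 CPM in CSB and at 5.47 and 6.31 CPM in Obp56h-/- (log2 difference -3.41 ± 0.21, SE, adjusted p = 1.10e-08). Among 1295 tested long non-coding RNAs 6 fell, a share close to the 0.436% of all genes tested that fell, and 2 rose. Of the falls, these 2 held against each CSB library. The rises were lncRNA:CR32553 (log2 difference 2.59 ± 0.36, SE, adjusted p = 0.000529) and lncRNA:CR45333 (1.31 ± 0.26, SE, adjusted p = 0.0129), and neither held against each CSB library. Over the whole list of long non-coding RNAs the median log2 difference was -0.83 against CSB replicate 1 and -0.08 against replicate 2.

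Genes of nucleotide metabolism, transport and structure were also among the falls that held. CG17224, predicted to code for a uridine phosphorylase, was at 43.9 and 48.6 CPM in CSB and at 8.2 and 5.65 CPM in Obp56h-/- (log2 difference -2.73 ± 0.18, SE, adjusted p = 3.87e-08), and its neighbor CG17264 on 2L fell by 2.73 ± 0.32 (SE, adjusted p = 7.66e-05). CR40621, for which the annotation used gave no position, was at 68.6 and 86.6 CPM in CSB and at 5.06 and 4.82 CPM in Obp56h-/- (log2 difference -3.97 ± 0.19, SE, adjusted p = 2.37e-10). Mdr50, an ABC transporter of the multidrug resistance family, was at 4.88 and 5.58 CPM in CSB and at 1.06 and 1.61 CPM in Obp56h-/- (log2 difference -2.00 ± 0.28, SE, adjusted p = 0.000498). None of these genes overlapped between genotypes. Drosocrystallin (Crys), a protein of the corneal lens, fell by 1.56 ± 0.19 (SE, adjusted p = 0.000119), CkIIalpha-i3 by 1.10 ± 0.16 (SE, adjusted p = 0.000957), and the genes CG13924, CG8012 and CG34215 had log2 differences of -3.52, -2.28 and -1.51.

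**Figure D3:**
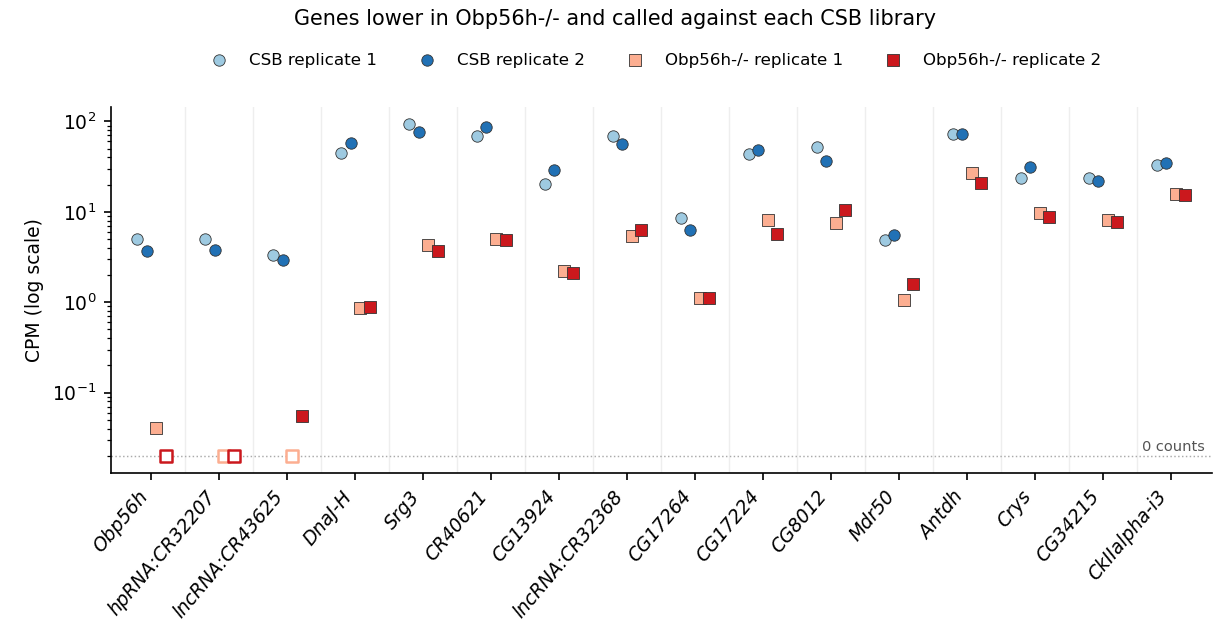
Levels in each female library, in CPM on a log axis, of the 16 genes that were lower in Obp56h-/- and called against each CSB library. Open symbols on the dotted line stand for 0 counts. For every gene both Obp56h-/- libraries (squares) lie below both CSB libraries (circles), and the 2 CSB libraries lie close to each other.

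Another set of falls was tied to CSB replicate 1. CG15599 was at 150 and 38.9 CPM in CSB replicates 1 and 2 and at 2.49 and 3.32 CPM in Obp56h-/- (log2 difference -5.02 ± 0.74, SE, adjusted p = 0.000992), and without CSB replicate 1 its adjusted p was 0.069. In most of the 24 genes of this set, CSB replicate 2 was much closer to the Obp56h-/- libraries. The posterior Hox gene Abd-B, which is not known as a gene of the head, was at 11.3 and 1.49 CPM in CSB and 0.775 and 0.332 CPM in Obp56h-/-, the larval salivary glue gene Sgs1 at 32.9 and 6.61 CPM against 3.84 and 2.82 CPM, and the axonemal dynein gene Dnah3 at 11.1 and 2.52 CPM against 1.39 and 0.941 CPM. Without CSB replicate 1 the adjusted p of these 3 genes was between 0.64 and 1, and without either Obp56h-/- library it was between 0.080 and 0.37. The same set holds the sodium channel gene ppk10, Osi6, CG3655, lncRNA:CR44723, the neural stem cell RNA lncRNA:cherub and the 5S rRNA gene CR33451. The background reads in CSB replicate 1 moved with these calls, and their part in the result was not tested.

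Several called genes lie near each other. Of the 135 called genes with a position, 43 were within 50 kb of another called gene, in 18 runs, of which 11 held only rises or only falls and 7 held both. How often as many genes drawn from all those tested would lie this close was not computed, so the count describes positions only. Some of these runs are the families named above (DptA and DptB, CecA1 and CecA2, Dro and AttB, Drsl4 and Drsl5, TotA and TotC). On 3L, between 15407832 and 15458309, CG33259, lncRNA:CR43625, lncRNA:CR45395 and lncRNA:CR45394 were all lower in Obp56h-/-, with counts over both libraries of 60, 107, 67 and 47 in CSB and of 0, 1, 1 and 0 in Obp56h-/-. Of these 4 neighbors only lncRNA:CR43625 held against each CSB library. On 2L, between 14712471 and 14747080, CG15282, CG34165 and CR45458 were all higher and all held. On 3L, between 19477329 and 19527272, hpRNA:CR32207, hpRNA:CR33940 and the acid phosphatase gene CG9449 were lower, whereas the next acid phosphatase gene CG9451 and the cuticle gene Cpr76Bc were higher, and of these 5 genes hpRNA:CR32207 alone held against each CSB library. Over the X and the large autosome arms, the called share ran from 0.675% of the genes tested on 3R to 1.42% on 3L, with 1.06% on 2R, where Obp56h lies, and on chromosome 4 edgeR called 0 of 105 tested genes and DESeq2 1 (11 at an unadjusted p under 0.05).

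In metabolism and feeding, CCHa2 was the gene of the insulin pathway and feeding hormone list that was called, 1 of 30. CCHa2 codes for a peptide of the gut, fat body and brain that promotes feeding and insulin release. It was at 76.4 and 65.9 CPM in CSB replicates 1 and 2 and at 127 and 125 CPM in Obp56h-/- (log2 difference 0.83 ± 0.14, SE, adjusted p = 0.00381), and held against each CSB library, whereas its adjusted p was 0.052 without Obp56h-/- replicate 1. Limostatin (Lst), a peptide that lowers insulin release, was at 126 and 122 CPM in CSB and at 76 and 88 CPM in Obp56h-/- and was not called by edgeR's quasi-likelihood test (log2 difference -0.59 ± 0.16, SE, adjusted p = 0.0862). Lst was called lower by DESeq2 (adjusted p = 0.019) and by a likelihood ratio test (adjusted p = 0.026). It was also called with no filter, library size alone, females alone or the replicate block (adjusted p = 0.022, 0.0496, 0.003 and 0.047). Lst was not called with RLE size factors, a minimum of 10 counts in each library, counts per kb or thinning (adjusted p between 0.064 and 0.10). Nor was it called with any library left out. The insulin-like peptide genes Ilp3 and Ilp5 had log2 differences of 0.81 and 0.66, and Ilp2 of -0.25, and none was called (adjusted p between 0.189 and 0.635). Of 45 neuropeptide genes, Nplp3 was the other call, at 786 and 816 CPM in CSB and at 1416 and 1402 CPM in Obp56h-/- (log2 difference 0.81 ± 0.14, SE, adjusted p = 0.006), and it kept its call only without CSB replicate 2 (adjusted p = 0.026, and between 0.054 and 0.061 without any other library).

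Of 9 storage and yolk protein genes 2 rose, and of 13 amylases and maltases 1 rose, while 0 of either list fell. Over all genes tested, 0.598% rose and 0.436% fell. The medians were 0.12 for the storage and yolk proteins and -0.54 for the amylases and maltases, of which 3 lay above 0 and 10 below. The storage hexamerin Lsp1beta was at 66.7 and 68.6 CPM in CSB and at 852 and 163 CPM in Obp56h-/- replicates 1 and 2 (log2 difference 2.91 ± 0.44, SE, adjusted p = 0.00127), and Lsp2 at 36.8 and 49.97 CPM against 207 and 107 CPM (log2 difference 1.85 ± 0.35, SE, adjusted p = 0.0104). The alpha-glucosidase gene tobi, whose name stands for target of brain insulin, was at 23.0 and 33.6 CPM against 126 and 58.3 CPM (log2 difference 1.69 ± 0.26, SE, adjusted p = 0.00136). In all of these, Obp56h-/- replicate 1 was the higher library and the genotypes did not overlap. The call of tobi was lost without CSB replicate 1 (adjusted p = 0.13), those of Lsp1beta and Lsp2 without CSB replicate 1 (adjusted p = 0.13 and 0.44) or CSB replicate 2 (adjusted p = 0.077 and 0.097), and that of Lsp2 also without Obp56h-/- replicate 1 (adjusted p = 0.18) or with DESeq2 (adjusted p = 0.11). The yolk protein genes Yp1, Yp2 and Yp3 had log2 differences between -0.04 and 0.12, and of 26 genes of lipid mobilization and transport 0 were called by edgeR and 1 by DESeq2 (5 at an unadjusted p under 0.05). Jabba, which codes for a lipid droplet protein, rose by 0.62 ± 0.14 (SE, adjusted p = 0.0408), with its call lost whichever library was left out (adjusted p between 0.088 and 0.42).

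Among enzymes, 2 of 87 cytochrome P450 genes rose and 1 fell, beside 0.598% and 0.436% of all genes tested. So few calls say little about the family. Cyp4e3 was at 7.0 and 3.88 CPM in CSB and at 25.8 and 16.2 CPM in Obp56h-/- (log2 difference 2.00 ± 0.30, SE, adjusted p = 0.00133), with its call lost only without CSB replicate 2 (adjusted p = 0.081). Cyp4g1, which makes cuticular hydrocarbons in the oenocytes, rose by 0.91 ± 0.20 (SE, adjusted p = 0.0297), and Cyp12d1-p fell by 1.27 ± 0.29 (SE, adjusted p = 0.0428). Cyp4g1 was lost with any library left out (adjusted p between 0.063 and 0.45), and Cyp12d1-p was kept only against CSB replicate 1 (adjusted p between 0.27 and 0.61 in the other fits). In one-carbon metabolism, Gnmt and Sardh, which make and break down sarcosine, were both lower, as 2 of 11 genes. Sardh was at 6.35 and 11.0 CPM in CSB and at 3.92 and 1.61 CPM in Obp56h-/- (log2 difference -1.65 ± 0.31, SE, adjusted p = 0.0108), lost without CSB replicate 2 or Obp56h-/- replicate 2 (adjusted p = 0.18 for each), and Gnmt at 34.4 and 41.8 CPM against 23.1 and 20.4 CPM (log2 difference -0.81 ± 0.17, SE, adjusted p = 0.0194), lost with any library left out (adjusted p between 0.053 and 0.34). None of 32 glutathione transferases was called by edgeR or DESeq2 (5 at an unadjusted p under 0.05), and of 31 UDP-glycosyltransferases Ugt36F1 rose by 0.98 ± 0.20 (SE, adjusted p = 0.0162), a call lost with any library left out (adjusted p between 0.059 and 0.25).

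Of 34 tested odorant-binding protein genes, 3 rose and Obp56h fell, beside 0.598% and 0.436% of all genes tested. Obp19d, which is expressed in taste and smell organs, was at 828 and 707 CPM in CSB and at 1454 and 1442 CPM in Obp56h-/- (log2 difference 0.92 ± 0.15, SE, adjusted p = 0.00381), and its call was kept in every fit. Obp56a was at 4.79 and 3.43 CPM in CSB and at 12.7 and 12.7 CPM in Obp56h-/- (log2 difference 1.66 ± 0.26, SE, adjusted p = 0.00177), and lost its call only without CSB replicate 2 (adjusted p = 0.082). Obp28a rose by 0.65 ± 0.15 (SE, adjusted p = 0.0436) and lost its call with any library left out (adjusted p between 0.082 and 0.49). In the list of antennal enzymes and carriers, the antennal dehydrogenase gene Antdh fell from 72.7 and 73.4 CPM to 26.8 and 20.8 CPM (log2 difference -1.61 ± 0.19, SE, adjusted p = 7.58e-05) and held in every fit. CheA87a, a member of a family linked to pheromone sensing, rose by 3.65 ± 0.69 (SE, adjusted p = 0.0108) and kept its call only against CSB replicate 2 (adjusted p = 0.13 without it, and 0.13 and 0.054 without Obp56h-/- replicates 1 and 2).

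Cuticle genes gave 4 rises and 0 falls among 82 tested, whereas 0.598% of all genes tested rose and 0.436% fell. Acp1 was at 11.0 and 8.43 CPM in CSB and at 26.9 and 43.9 CPM in Obp56h-/- (log2 difference 1.88 ± 0.27, SE, adjusted p = 0.000594), with its call lost only without CSB replicate 2 (adjusted p = 0.062). Cpr100A, Cpr49Ae and Cpr76Bc rose by between 0.80 and 1.15 on the log2 scale, and were called against neither CSB library alone (adjusted p between 0.067 and 0.17) nor without Obp56h-/- replicate 2 (adjusted p between 0.14 and 0.29). Without Obp56h-/- replicate 1 only Cpr100A was called. The median of the list was -1.07 against CSB replicate 1 and -0.07 against replicate 2, beside -0.007 and -0.02 over all genes tested. Against replicate 2 the list was thus near all genes. Its direction opposite to the 4 called genes was seen mainly against replicate 1.

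**Figure D4:**
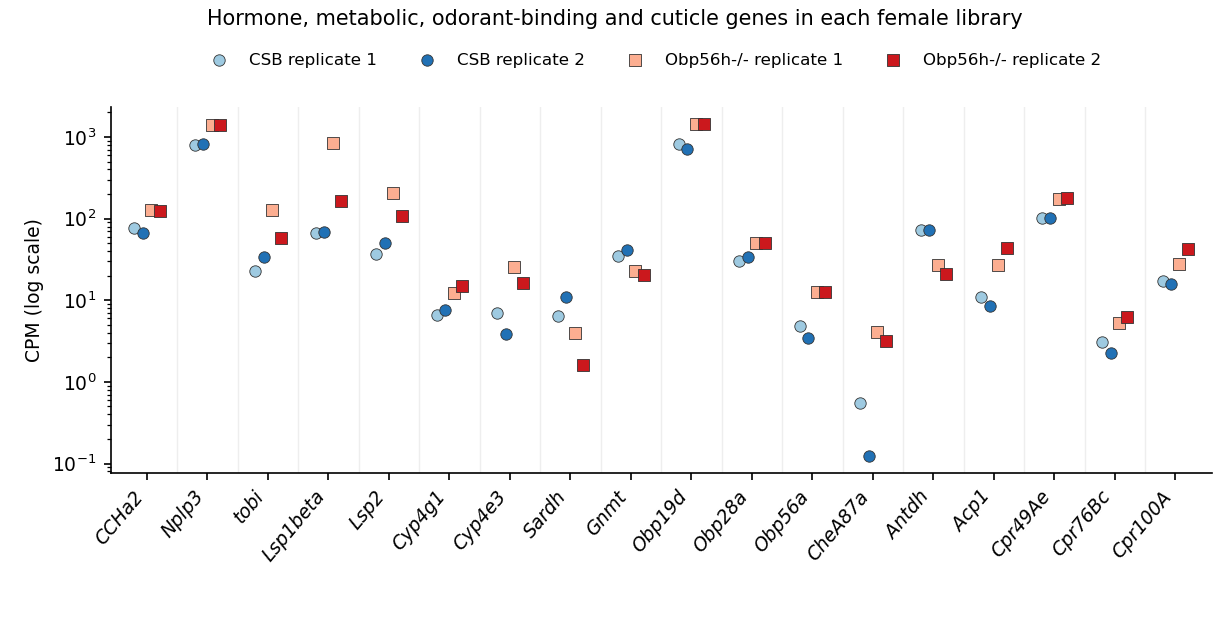
Levels in each female library, in CPM on a log axis, of called hormone, metabolic, odorant-binding, antennal and cuticle genes, with circles for CSB and squares for Obp56h-/-. Lsp1beta, Sardh, tobi and Lsp2 differ most between the 2 Obp56h-/- libraries (852 and 163 CPM for Lsp1beta), while Obp19d, Nplp3 and CCHa2 are nearly the same in both.

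Chemoreceptor genes gave 0 calls with edgeR and with DESeq2 among 36 odorant receptors, 29 gustatory receptors and 49 ionotropic receptors (6, 4 and 10 at an unadjusted p under 0.05). Over all 13536 genes tested, 1455 had an unadjusted p under 0.05. The medians of the receptor lists depended on the control. Against CSB replicate 1 the median log2 differences were -1.56, -1.85 and -1.83, whereas against CSB replicate 2 they were 0.04, -0.07 and -0.39. The summed level of the odorant receptors was 92.7 CPM in CSB replicate 1 and between 73.4 and 79.9 CPM in the other libraries. Levels of the antennal gene Obp83a, given under other observations, differed widely between replicates. How far the amount of antennal RNA differed between the libraries was not tested, which limits what 0 calls in these lists can show. Among markers of organs outside the head, 39 tested testis markers had a median of -1.21 against CSB replicate 1 and 0.02 against replicate 2, and 21 ovary markers had medians of -1.27 and 0.05. The medians of 14 gut markers were -0.40 and -0.12, and those of 8 male accessory gland markers -0.27 and -0.13, and neither edgeR nor DESeq2 called a marker of the testis, ovary, gut or accessory gland (5, 2, 1 and 0 at an unadjusted p under 0.05). The summed levels of the testis and ovary markers were low, at 127 CPM in CSB replicate 1 and 83.7 to 94.7 CPM in the other libraries for testis and between 185 and 197 CPM in all 4 for ovary.

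In lists that define the working head, calls are likewise read against the 1.03% called over all genes. A list this short with 0 calls says little. None of the 26 heat shock proteins, 14 clock genes, 35 phototransduction genes or 18 genes of the mitochondrial genome was called by edgeR, with 3, 1, 2 and 5 of them at an unadjusted p under 0.05 and 1, 0, 0 and 1 called by DESeq2. The drosopterin gene sepia (se) was the call among 22 eye pigment genes, at 39.5 and 40.3 CPM in CSB and 60.0 and 66.8 CPM in Obp56h-/- (log2 difference 0.67 ± 0.14, SE, adjusted p = 0.0279), lost with any library left out (adjusted p between 0.089 and 0.40). In the list of nuclear genes of the respiratory chain, ox, a subunit of complex III, was 1 call of 82, with a rise of 0.68 ± 0.15 (SE, adjusted p = 0.0301). Outside the list, CG40472, which the authors count with the electron transfer chain, rose by 0.77 ± 0.17 (SE, adjusted p = 0.0365). CG12895, which they link to succinate dehydrogenase assembly, rose by 0.94 ± 0.21 (SE, adjusted p = 0.0395). The calls of ox, CG40472 and CG12895 were lost with any library left out. The log2 differences of the list were above 0 for 76.8% of its genes, against 46.5% of all genes tested, with medians of 0.19 and 0.18 against CSB replicates 1 and 2. Scaled by library size alone, which moved the median of all genes from -0.03 to -0.14, this share was 58.5%. The share of all genes above 0 under that scaling was not computed, so the 58.5% cannot be set against the 46.5%. In a separate fit, DESeq2 called 5 genes of the list higher.

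Of 82 cytoplasmic ribosomal protein genes, 1 fell and 81 were not called. The log2 difference was below 0 for 85.4% of them, against 53.4% of all genes tested, with a median of -0.24 that was alike against CSB replicate 1 (-0.24) and replicate 2 (-0.26). DESeq2 called 4 of them lower, and 26 had an unadjusted p under 0.05. Scaled by library size alone, which moved the median of all genes to -0.14, 96.3% of them were below 0. The called member was the duplicate gene RpS15Ab, at 47.3 and 64.4 CPM in CSB and at 33 and 30.4 CPM in Obp56h-/- (log2 difference -0.82 ± 0.18, SE, adjusted p = 0.0277), which kept its call only against CSB replicate 2 (adjusted p between 0.16 and 0.34 without the other libraries). LTV1, needed to assemble the small ribosomal subunit, fell by 0.62 ± 0.14 (SE, adjusted p = 0.0365), and its call was lost with any library left out (adjusted p between 0.072 and 0.57). In contrast, the 70 tested mitochondrial ribosomal proteins had a median of 0.04 and 0 calls by edgeR or DESeq2 (5 at an unadjusted p under 0.05). Of 151 snoRNAs 2 rose, beside 0.598% of all genes tested, and neither held against each CSB library. The call of snoRNA:Psi18S-841d was lost with any library left out (adjusted p between 0.11 and 0.23), and that of snoRNA:Tudor-SN-a without CSB replicate 1 (adjusted p = 0.58) or Obp56h-/- replicate 1 (adjusted p = 0.43). Of 28 snRNAs edgeR called 0 and DESeq2 1 (6 at an unadjusted p under 0.05). Of 57 tRNAs, tRNA:Tyr-GTA-1-9 was lower (adjusted p = 0.0147), and its call was lost with any library left out (adjusted p between 0.075 and 0.28).

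**Figure D5:**
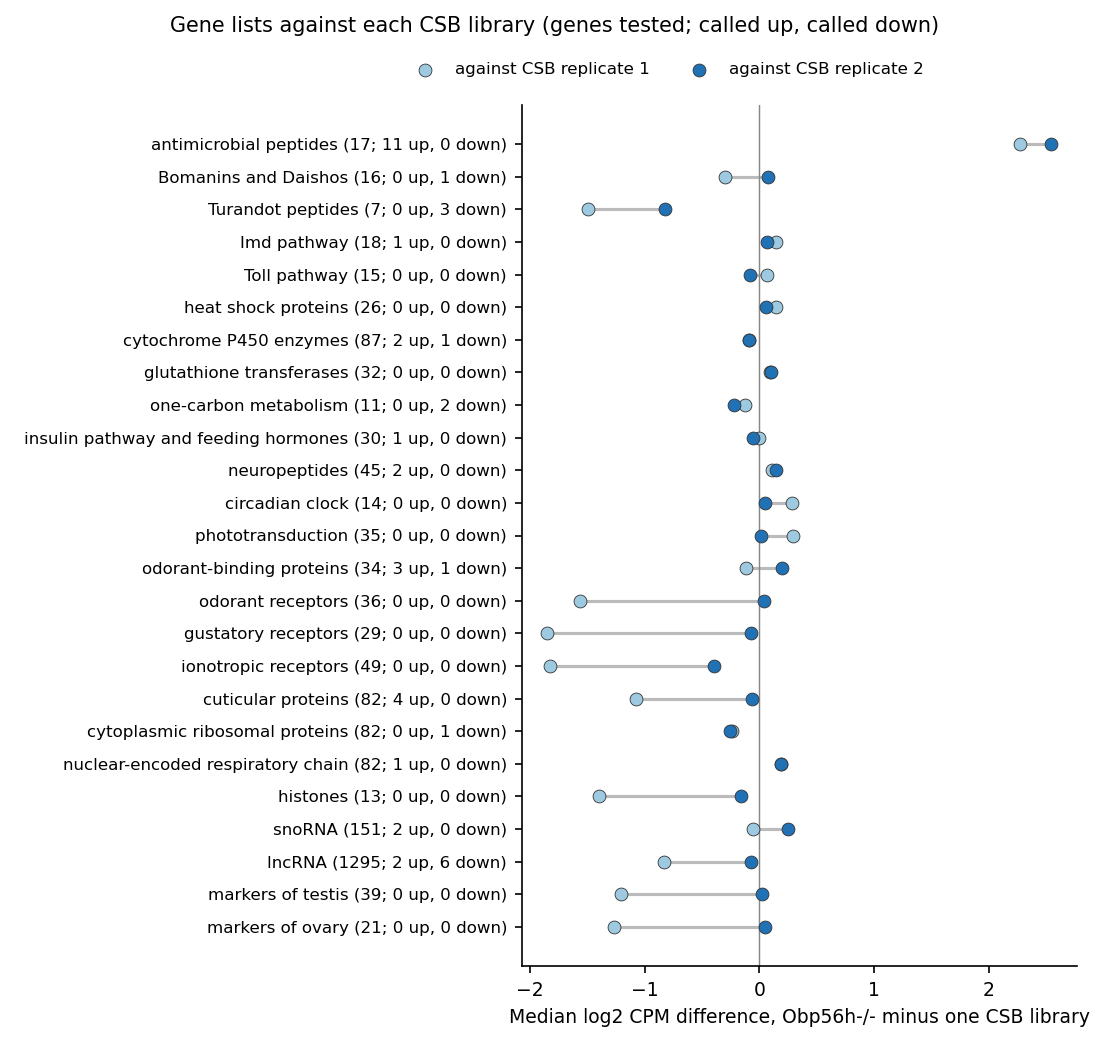
Median log2 difference of 25 gene lists, as the mean of the Obp56h-/- libraries minus CSB replicate 1 (light) or CSB replicate 2 (dark). Labels give the number of genes tested and of called rises and falls. The antimicrobial peptides lie at 2.27 and 2.55, the chemoreceptors, cuticular proteins, histones, lncRNAs and testis and ovary markers lie further below 0 against CSB replicate 1 than against replicate 2, where the ionotropic receptors are still at -0.39, and ribosomal proteins and the respiratory chain give nearly the same value against both.

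Cell type markers gave 2 calls. In the fat body list, Lsp2 and Cyp4g1 were called higher, 2 of 10. Cyp4g1, as given above, acts in the oenocytes, so its call is not one of a fat body marker. Neither gene held against each CSB library, and DESeq2 called neither, though it called 2 other genes of the list higher. Of the markers of neurons (11 tested), glia (9), photoreceptors (10), hemocytes (9) and flight muscle (8) 0 were called by edgeR, with 2, 1, 0, 1 and 1 at an unadjusted p under 0.05 and 0, 0, 0, 1 and 0 called by DESeq2. The summed fat body markers were at 62100 and 65100 CPM in CSB and at 70900 and 61300 CPM in Obp56h-/-, and those of hemocytes at 1480 and 1630 CPM in CSB and at 1990 and 1810 CPM in Obp56h-/-. The genotypes overlapped for fat body but not for hemocytes. A lack of overlap says little here, since 19.4% of all genes tested were higher in both Obp56h-/- libraries than in both CSB libraries. The part of the fat body and hemocyte marker levels in the rise of the antimicrobial peptides, which both tissues can make, was not tested.

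The difference between the sexes in the effect of the genotype passed for 5 genes (0.0369% of those tested), of which CR40621, Mdr50, Sardh and tRNA:Tyr-GTA-1-9 were among the falls in females.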

How the data were processed

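The authors depleted ribosomal RNA, sequenced paired ends, trimmed and filtered reads with AfterQC, screened them for ribosomal RNA with bbduk, aligned them with GSNAP to D. melanogaster release 6 and summed unique alignments over each gene with Subread. The counts were deposited raw, without normalization. Groups were taken from the labels. Counts were filtered with filterByExpr (minimum count 10), scaled by TMM and fitted in edgeR 4.0.16 (R 4.3.3) as 4 groups over all 8 libraries, with a quasi-likelihood test of females and Benjamini-Hochberg adjustment (threshold 0.05). SE is the log2 difference over the square root of F. Differences from single libraries used log2 CPM with a prior count of 2. Positions came from Ensembl 115, in which 17288 genes were found. Plots were drawn with matplotlib 3.10.9. On simulated counts of this comparison (13325 genes tested), 63% of 2-fold and 92% of 4-fold changes were recovered, from 100 changed genes for each. These rates describe the simulated counts only. Recovery among genes with few reads, or with a control library set apart like CSB replicate 1, was not tested.

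Genes and lists were chosen with earlier results of these data known. Named genes are Obp56h, the 12 largest rises and 12 largest falls without overlap (mean of at least 20 counts), called list members or the member with the lowest p, and genes with a sex difference. Others were named after their values were seen. Alternatives were a likelihood ratio test, DESeq2 1.42.0, RLE or library size scaling, other filters, females alone, a replicate block, counts per kb, thinning, p under 0.01 and each library left out. Promoter motifs were not analysed here.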

Additional observations from a re-analysis of the deposited data

Results flagged for a closer look

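The effect of the genotype differed between females and males by a test of the difference itself, in the same fit, for 5 genes, and the direction differs between them.

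CR40621 was at 68.6 and 86.6 CPM in CSB females and at 5.06 and 4.82 CPM in Obp56h-/- females, but at 77.9 and 63.8 CPM in CSB males and at 84.2 and 92.2 CPM in Obp56h-/- males, and the female minus male effect was -4.29 on the log2 scale (adjusted p = 1.46e-08). Mdr50 was at 7.58 and 8.56 CPM in CSB males and at 10.1 and 8.71 CPM in Obp56h-/- males, so that the fall seen in females had no counterpart there (difference of the effects -2.22, adjusted p = 0.0342). Sardh was at 12.8 and 16.3 CPM in CSB males and at 23.5 and 26 CPM in Obp56h-/- males, above the CSB males, where females were below (difference -2.42, adjusted p = 0.0442). CG4757 went the other way, with a log2 difference of -0.30 in females that was not called and of -1.78 in males (difference 1.48, adjusted p = 0.0342).

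The tRNA gene tRNA:Tyr-GTA-1-9 had 105 and 122 counts in CSB females and 2 and 0 in Obp56h-/- females, whereas the males had 2 and 3 counts in CSB and 2 and 252 in Obp56h-/- (difference -12.5, adjusted p = 0.0251), so that within males a single library held nearly all of its reads. It lies within an exon of Ntl on the same strand, and Ntl itself was at 131 and 60.1 CPM in CSB females and at 231 and 203 CPM in Obp56h-/- females.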

How the results depend on the processing

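The checks of single genes given here cover the genes named by the rule above, 67 called and 29 not called. Genes named after their values were seen are not included. None of the 67 called genes changed direction under any alternative. Of the 29 without a call, LysE and Tep2 did, remaining uncalled. Of the 66 called genes named beside Obp56h, 66 kept the call with RLE size factors, a likelihood ratio test, no filter, females fitted alone and the replicate block, 59 with DESeq2, 62 with counts per kb, 60 with libraries thinned to equal depth, 43 with library size alone, 35 at an adjusted p under 0.01, 39 of the 49 still tested with a minimum of 10 counts in each library, and between 32 and 37 with a library left out. Among these 66 genes, the calls of CG12826, TotC, TotM, Cyp4g1, Cyp12d1-p, Lsp2 and Cpr76Bc were lost with DESeq2 (adjusted p between 0.0527 and 0.235). The count of changed genes (140, with 81 higher and 59 lower) was 64 (42 and 22) at an adjusted p under 0.01, 288 (125 and 163) with a likelihood ratio test, 236 (125 and 111) with DESeq2, 91 (44 higher) with library size alone, 416 (193 and 223) with no filter, 505 (220 and 285) with females alone, 36 lower with a minimum of 10 counts in each library and 95 lower with counts per kb and a likelihood ratio test. With a library left out it ranged from 63 to 153 (33 to 47 higher, 20 to 120 lower), the most falls being called without CSB replicate 2 and the fewest without Obp56h-/- replicate 2. The causes were not tested. The count of genes with a sex difference (5) was 1 at an adjusted p under 0.01, 30 with a likelihood ratio test, 19 with DESeq2, 2 with library size alone, 70 with no filter, 1 with a minimum of 10 counts in each library, 14 with counts per kb, 2 when thinned, and from 1 to 3 with a library left out.

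The replicate numbers come from the labels and nothing says that they pair the pools. Deviations of same-numbered CSB and Obp56h-/- female libraries correlated at 0.068, those of CSB females and CSB males at 0.533, and those of the other pairs of groups between -0.012 and 0.088. With the replicate block 222 genes were called (113 higher and 109 lower), among them all 140, and 18 genes differed between the sexes.

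With 2 libraries a side, the p-values and SE set a difference against a spread between pools that was estimated over all 8 libraries, males included. At 3 counts, the floor of CSB replicate 1 was 0.276 CPM, more than in the other female libraries (0.122 to 0.166 CPM), so changes of genes below these levels were not detectable.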

Other observations

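The odorant-binding protein genes Obp83a, Obp83b and Obp19a, chosen after their values were seen, had low levels that differed between the 2 Obp56h-/- libraries. Obp83a, whose protein fills olfactory hairs of the antenna, was at 6.0 and 0.0554 CPM in Obp56h-/- replicates 1 and 2 and at 2.03 and 0.372 CPM in CSB replicates 1 and 2. Obp83b was at 3.88 and 0 CPM in Obp56h-/- and at 1.29 and 0.124 CPM in CSB, and Obp19a at 2.41 and 0 CPM in Obp56h-/- and at 0.737 and 0.0413 CPM in CSB. In each genotype replicate 1 was the higher library for these genes, and none was called (adjusted p between 0.653 and 0.699). Obp28a, Obp56a and Obp19d, the members of the family that rose, were close to equal in the 2 Obp56h-/- libraries (49.9 and 50.1 CPM for Obp28a).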
